A study of Mus musculus with 7 samples.

Results

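The miR-181 family is described here in mouse kidneys as the 4 mature microRNAs (miRNAs) that the array names mmu-miR-181a, mmu-miR-181b, mmu-miR-181c and mmu-miR-181d, chosen by these names among the 696 mouse miRNAs of the array. Each was measured by 2 probes. miR-181a, miR-181b and miR-181c were detected on all 7 arrays, and miR-181d passed the filter on detection, which asked that 1 group or both be detected throughout, only through the non-treated group. Kidneys came from male C57BL/6 mice of 9 to 12 weeks at day 28 after surgery, which was either unilateral ureteral obstruction (UUO), a model of kidney fibrosis in which the left ureter is tied off, or a sham operation in which it is only exposed. Total RNA of each kidney sample was labelled with Cy3 and read on 1-colour Agilent arrays, of which 4 carry the label non-treated (replicates 1 to 4) and 3 the label treated (replicates 1, 3 and 4). The record gives no other treatment, genotype or strain difference between the groups and does not say which operation each label stands for. The letter S that numbers the treated arrays may stand for sham, and the title of the series names sham kidneys. The study describes its replicates as mice, but the labels tie no array to a mouse, so p-values measure the spread between these arrays. Whole kidney was measured, and in such bulk RNA fewer cells of a type and less RNA per cell cannot be told apart.

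A mature miRNA guides an Argonaute protein to messenger RNAs that pair with its seed, the bases 2 to 8 from its 5′ end, and so lowers their translation and stability. miRNAs with the same seed are grouped as a family because their predicted targets largely overlap. The miR-181 family is best known from lymphocytes, where miR-181a tunes the sensitivity of the T cell receptor during thymic development, and from blood vessels, where miR-181b dampens inflammatory NF-κB signalling in endothelium. Family members are also made in brain, muscle and other tissues, so their presence in a kidney does not by itself name a cell type.

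The mature sequences are shown because the family is defined by them and because the members differ at few bases, which a hybridization array has to tell apart. They are taken from RefSeq (mouse build GRCm38.p6), in which all 4 members matched by name, and the capitals mark the seed.
miR-181a: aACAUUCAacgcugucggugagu
miR-181b: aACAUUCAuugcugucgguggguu
miR-181c: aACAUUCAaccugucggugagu
miR-181d: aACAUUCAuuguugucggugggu
The seed ACAUUCA is the same in all 4 members, and of 1679 mature mouse miRNA names in the RefSeq table only these 4 carry it. Outside the seed the members form 2 closer pairs. miR-181a (23 bases) and miR-181c (22 bases) are 1 edit apart, an edit being a substitution, insertion or deletion of a base. miR-181b (24 bases) and miR-181d (23 bases) are 2 edits apart, with C12U as the substitution from miR-181b to miR-181d, counted from 1 at the 5′ end. The remaining pairs are 4 or 5 edits apart. From miR-181a to miR-181b the substitutions are A9U, C10U and A21G. The sequences of the array probes were not in the files used here, so cross-hybridization between members was not tested.

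The family is encoded by 6 hairpin genes at 3 loci (GRCm38.p6). On chromosome 1, Mir181a-1 (chr1:137966455-137966541, + strand) and Mir181b-1 (chr1:137966639-137966718, +) lie 97 bases apart, with no overlapping gene in the RefSeq gene table. On chromosome 2, Mir181a-2 (chr2:38852735-38852810, +) and Mir181b-2 (chr2:38853830-38853918, +) lie 1019 bases apart, inside the spans of Nr6a1, a protein-coding nuclear receptor gene, and of the long non-coding RNA gene Nr6a1os. On chromosome 8, Mir181d (chr8:84178716-84178787, −) and Mir181c (chr8:84178873-84178961, −) lie 85 bases apart, with no overlapping gene in the table. Whether the hairpins on chromosome 2 are intronic or exonic in their host genes was not determined here, since the table holds gene spans only. Mature miR-181a and miR-181b can each come from chromosome 1 or chromosome 2, and their array signals do not separate the loci. miR-181c and miR-181d come from chromosome 8 alone.

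The number of miRNAs that Agilent's software called detected was 232 to 282 on non-treated arrays (median 263.5) and 193 to 214 on treated ones (median 203). The mean log2 signal before scaling was 7.24 ± 0.40 (SD, n = 4) on non-treated and 6.09 ± 0.32 (SD, n = 3) on treated arrays. The spike-in controls lay at a mean log2 signal of 10.4 to 10.8 on non-treated and 10.2 to 10.8 on treated arrays. Arrays of a group correlated with each other at Pearson's r of 0.990 or more across miRNAs. Of 10 kidney tubule miRNAs listed as a check of the tissue, 9 were detected on all 7 arrays, and miR-215 was detected on none. The level of miR-21, a miRNA known to rise in fibrotic kidney, had a log2 difference of -2.18 (SE 0.13) between the labels, treated minus non-treated, so it was lower on treated arrays. This is the opposite of the direction that the study gives for obstruction, and the same held for each of the other miRNAs that its results text names as changed in these kidneys. The operation behind each label could not be settled from the record, and every direction below follows the deposited label, with differences taken as treated minus non-treated.

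The signals of all 4 members were lower on the arrays labelled treated, by 1.43-fold for miR-181b, 1.90-fold for miR-181a, 2.36-fold for miR-181c and 3.32-fold for miR-181d, and no member's groups overlapped. The 3 members detected on all arrays were lower past the threshold of a limma Benjamini-Hochberg adjusted p below 0.01, beside 60.6% of the 236 miRNAs tested that were called in either direction, 34.7% lower and 25.8% higher. With the fit restricted to the 186 miRNAs detected on all arrays, these 3 members were again called lower, beside 30.1% of the miRNAs. The fit also called miR-181d lower, but as that member entered through the group where it was high, its call is not counted as support. Groups did not overlap for 71.6% of the miRNAs tested, 41.1% with treated lower. The median log2 difference of the 3 members detected on all arrays was -0.92, against -0.02 over the 186 miRNAs detected on all arrays. With miR-181d and the other miRNAs kept through 1 group added, the medians were -1.08 for the 4 members and -0.13 for all miRNAs tested. Lower calls were thus common on these arrays, and differences as low as that of miR-181b or lower were found for 33.1% of the miRNAs tested. Counted from the lowest measured difference among the 236, miR-181c ranked 40, miR-181a 54 and miR-181b 78. miR-181d stood at 28, a place that is not firm because its treated signal was near background.

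**Figure D1:**
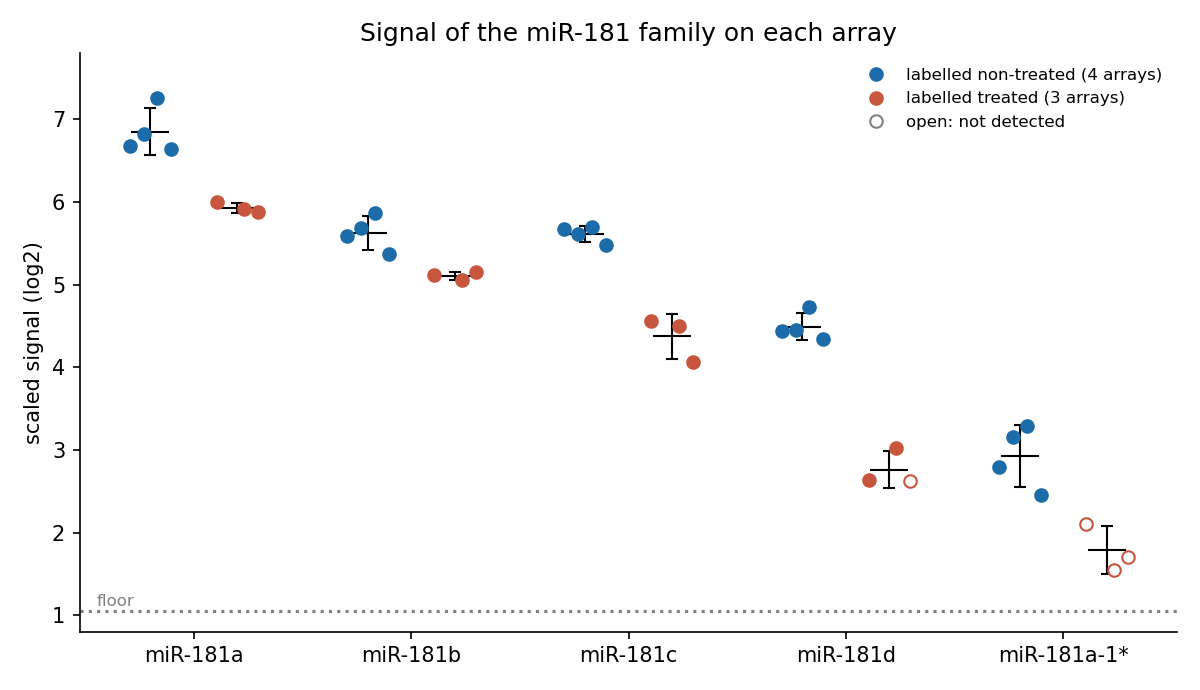
Scaled log2 signal (y axis) of the 4 members and of miR-181a-1* on each array, as points by label (blue, 4 labelled non-treated; red, 3 labelled treated), with the mean and SD of each group in black; open points were not called detected, and the dotted line is the floor at 1.06. For each of the 4 members every red point lies below every blue one. Heights may be compared between arrays of 1 miRNA but not between miRNAs, whose probes differ.

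miR-181a, the member tied to T cell receptor sensitivity, had scaled log2 signals of 6.68, 6.82, 7.25 and 6.64 on non-treated replicates 1 to 4 and of 6.00, 5.91 and 5.87 on treated replicates 1, 3 and 4. Non-treated replicate 3 stood highest, and the treated arrays lay close together, below all non-treated ones. The means were 6.85 ± 0.28 (SD, n = 4) and 5.93 ± 0.064 (SD, n = 3), a log2 difference of -0.92 (SE 0.15, 95% confidence interval -1.27 to -0.58, limma adjusted p = 5.93e-04). The call was lost with Bonferroni in place of Benjamini-Hochberg adjustment (0.0628) and with all 696 miRNAs tested (0.0137). Before scaling its summed signal was 161, 193, 142.9 and 157 on the non-treated arrays and 39.2, 48.0 and 30.1 on the treated arrays, which shows that the unscaled gap was wider than the scaled one.

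miR-181b, the member linked to endothelial NF-κB signalling, had scaled log2 signals of 5.58, 5.68, 5.86 and 5.37 on the non-treated and 5.11, 5.05 and 5.15 on the treated arrays. The groups came closest for this member, with non-treated replicate 4 just above treated replicate 4. The means were 5.62 ± 0.20 (SD, n = 4) and 5.10 ± 0.050 (SD, n = 3), a log2 difference of -0.52 (SE 0.12, 95% confidence interval -0.79 to -0.25, limma adjusted p = 0.00417). This was the smallest difference of the family, and its call was lost when any 1 of 5 arrays was left out (non-treated replicates 1 and 2 and treated replicates 1, 3 and 4), with adjusted p values up to 0.0187 and log2 differences between -0.60 and -0.46. Quantile normalization gave -0.14 for miR-181b (adjusted p = 0.389).

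miR-181c, encoded on chromosome 8 and closest in sequence to miR-181a, had scaled log2 signals of 5.67, 5.61, 5.70 and 5.48 on the non-treated and 4.56, 4.50 and 4.06 on the treated arrays. The non-treated arrays lay close together, and treated replicate 4 stood lowest of all. The means were 5.61 ± 0.095 (SD, n = 4) and 4.37 ± 0.27 (SD, n = 3), a log2 difference of -1.24 (SE 0.13, 95% confidence interval -1.54 to -0.94, limma adjusted p = 4.59e-05). Its lowest signal before scaling was 48.5 on non-treated arrays and its highest on treated arrays was 18.1.

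miR-181d, encoded beside miR-181c, had scaled log2 signals of 4.43, 4.46, 4.73 and 4.35 on the non-treated and 2.64, 3.02 and 2.63 on the treated arrays. It was detected on all 4 non-treated arrays and on 2 of 3 treated arrays, the exception being treated replicate 4. The means were 4.49 ± 0.17 (SD, n = 4) and 2.76 ± 0.22 (SD, n = 3), a measured log2 difference of -1.73. With normexp background correction at an offset of 50, which exceeds its signals, the sign turned (0.18), as did that of miR-181b (0.093), and miR-181c stood at -0.0056. By the spot flags its treated signal was near background. On no treated array were more than 50% of the spots of either of its probes well above background. The difference is therefore not measured on both sides. With each treated array set at the higher of its own signal and the lowest detected one, the fold was 3.23. That value still rests on near-background signals and is no firm lower bound. Set against the lowest signal of a probe well above background, its brighter probe gave 2.20-fold and its other probe no fold. The fit gave miR-181d a limma adjusted p of 7.27e-06 (SE 0.13), for a member that the filter kept through the non-treated group alone. Agilent's summed signal moved the measured difference to -2.51 and normexp with an offset of 1 to -0.47. For each of the 4 members, an exact 2-sided permutation test over the 35 splits of 7 arrays gave p = 0.0571, the smallest that this number of arrays allows.

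**Figure D2:**
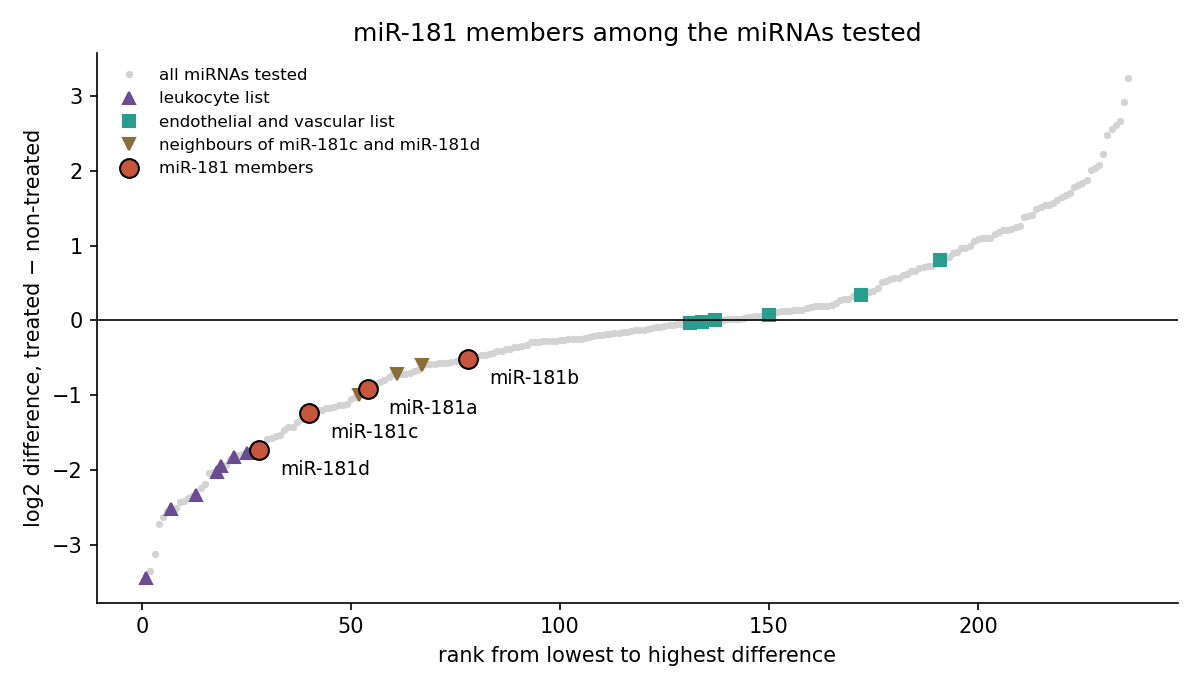
Log2 difference, treated minus non-treated (y axis), of the 236 miRNAs tested, in order from the lowest to the highest (x axis, rank), with the 4 miR-181 members as red circles and 3 context lists marked. The members stand at ranks 28, 40, 54 and 78. The values of miR-181d and of miRNAs not detected on treated arrays (among them miR-146b, at the lowest rank) are near background there, so their places are not firm.

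The file headers give 1 slide and 1 scan date for all arrays, and both rows of the slide held arrays of both labels. Row 1 held non-treated replicates 1 and 2 with treated replicate 1, and row 2 the other arrays. Within row 1 the log2 difference was -0.76 for miR-181a, -0.52 for miR-181b, -1.08 for miR-181c and -1.81 for miR-181d. Within row 2 it was -1.05 for miR-181a, -0.52 for miR-181b, -1.31 for miR-181c and -1.72 for miR-181d. miR-181a, miR-181b and miR-181c were thus lower on treated arrays within both rows. The measured signal of miR-181d was lower too, but is not counted as support, as its treated signals were near background. With the row as a block in the limma fit the adjusted p was 0.00139 for miR-181a, 0.00904 for miR-181b and 1.34e-04 for miR-181c. For miR-181d it was 2.42e-05, for a member that the filter kept through the non-treated group alone.

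The 2 probes of each member were also fitted one by one, since a family whose members share most of their bases can differ between probes. Over 50% of the spots were well above background on all arrays for 4 of the 8 probes, both of miR-181b and 1 each of miR-181a and miR-181c, and these 4 were lower on treated arrays past the threshold, beside 60.3% of the 365 probes tested that were called in either direction, 35.6% lower and 24.7% higher. For miR-181a the log2 differences were -0.99 (SE 0.15) and -0.91 (SE 0.15), for probes A_54_P1122 and A_54_P1123. For miR-181b both probes, A_54_P2650 and A_54_P2651, gave -0.52, with SE 0.14 and 0.12. The probes of these 2 members thus differed by less than their standard errors. For miR-181c the differences were -1.19 (SE 0.14, A_54_P1484) and -1.33 (SE 0.13, A_54_P1485). For miR-181d they were -2.06 (SE 0.20, A_54_P2982) and -1.60 (SE 0.12, A_54_P2983), the widest gap between probes of a member. On treated replicates 1 and 4, A_54_P2982 lay at the probe floor (log2 0.055), so its difference and that gap depend on the floor. A_54_P1122 passed the spot criterion on 2 of 3 treated arrays and A_54_P1485 on 1 of 3, so their tests, too, rest on a filter met through the non-treated group. A_54_P2982 had 0% of its spots well above background on every treated array, and A_54_P2983 had 10%, 50% and 0% on treated replicates 1, 3 and 4. Set against the lowest signal of a probe well above background, A_54_P2983 was 2.20-fold higher on non-treated arrays, and A_54_P2982 allowed no fold. This fold, too, is no firm lower bound. The probe differences of miR-181d are therefore not measured on both sides.

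**Figure D3:**
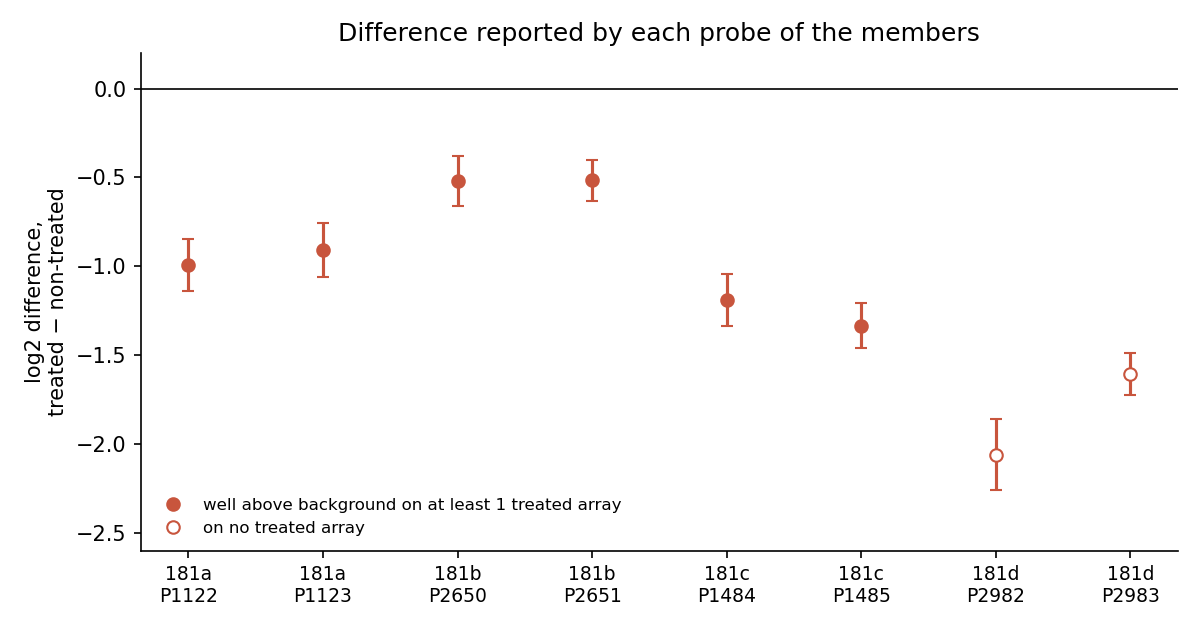
Log2 difference, treated minus non-treated (y axis), with its standard error, for the 8 probes of the members (x axis, member and probe); open points had no treated array with more than 50% of spots well above background. Probes of miR-181a, miR-181b and miR-181c lie close to each other within a member, and both probes of miR-181d are open.

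Ratios between members on the same array do not depend on a scaling factor of the array and were used to ask whether the members differed from each other in how much lower they were. Such a ratio shows unequal change and nothing about which molecule is more abundant. Groups did not overlap for 5 of 6 pairs, beside 75.7% of all 27730 pairs of tested miRNAs. The log2 ratio of miR-181a over miR-181b, the members encoded together on chromosomes 1 and 2, was 1.10, 1.14, 1.39 and 1.26 on the non-treated and 0.88, 0.86 and 0.72 on the treated arrays. It was lower on treated arrays by 0.40 (difference -0.40, SE 0.083, exact permutation p = 0.0571, adjusted over the 6 pairs 0.0686). The log2 ratio of miR-181c over miR-181d, the pair of chromosome 8, was 1.24, 1.15, 0.96 and 1.14 on the non-treated and 1.92, 1.48 and 1.44 on the treated arrays. It was higher on treated arrays by 0.49 (SE 0.16, exact permutation p = 0.0571, adjusted 0.0686). The second of these rests on the near-background treated signals of miR-181d, and groups that lie apart were usual among pairs of miRNAs on these arrays.

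Across loci, the log2 ratio of miR-181a over miR-181c, the pair closest in sequence, was 1.23 ± 0.23 (SD, n = 4) on non-treated and 1.55 ± 0.22 (SD, n = 3) on treated arrays. This was the only pair whose groups overlapped, with a difference of 0.32 (SE 0.17, exact permutation p = 0.171, adjusted 0.171). miR-181b over miR-181d, the other pair close in sequence, had the largest difference, from 1.13 ± 0.082 (SD, n = 4) to 2.34 ± 0.27 (SD, n = 3), 1.21 higher on treated arrays (SE 0.16, exact permutation p = 0.0571, adjusted 0.0686). The ratio of miR-181b over miR-181c was 0.0083 ± 0.13 on non-treated and 0.73 ± 0.31 on treated arrays, 0.72 apart (SE 0.19), and that of miR-181a over miR-181d was 2.36 ± 0.12 and 3.16 ± 0.25, 0.81 apart (SE 0.15). Both gave an exact permutation p of 0.0571 and an adjusted value of 0.0686. The 3 ratios with miR-181d rest on its near-background treated signals and, like its fold, are not measured on both sides.

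**Figure D4:**
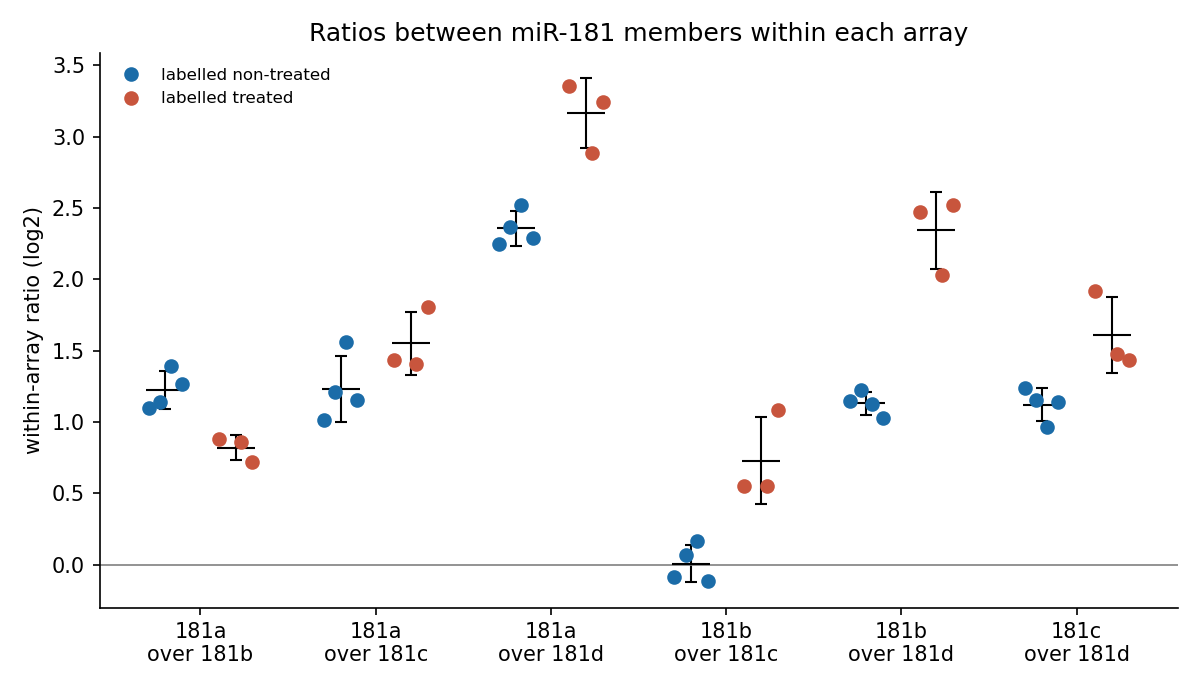
Log2 ratio between members on the same array (y axis) for the 6 pairs (x axis), as points by label (blue, 4 labelled non-treated; red, 3 labelled treated) with the mean and SD of each group in black. The groups lie apart for 5 pairs and overlap for miR-181a over miR-181c.

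Of the other strands of the hairpins, the array holds miR-181a-1* and miR-181a-2*, the strands opposite to miR-181a. They are shown because, unlike miR-181a itself, each belongs to 1 locus, the first to chromosome 1 and the second to chromosome 2, and because their seeds (in capitals) differ from that of the family.
miR-181a-1*: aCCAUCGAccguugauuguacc
miR-181a-2*: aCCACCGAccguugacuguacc
miR-181a-2* was detected on 0 of 7 arrays. miR-181a-1* was detected on 4 of 4 non-treated and 0 of 3 treated arrays, with scaled log2 signals of 2.80, 3.15, 3.29 and 2.45 on the non-treated and 2.11, 1.55 and 1.70 on the treated arrays. The measured means were 2.92 ± 0.38 (SD, n = 4) and 1.79 ± 0.29 (SD, n = 3). With each treated array set at the higher of its own signal and the lowest detected one, the fold was 1.28. The only probe of it that was tested, A_54_P3517, allowed no fold and was not called (limma adjusted p = 0.0115). The fit over miRNAs called miR-181a-1* (limma adjusted p = 0.00155), but the filter kept it through the non-treated group alone. Of the alternatives run, 20 kept the call, 10 lost it, among them the higher floor (-0.40), and 2, both normexp settings, turned the sign, so no difference is drawn from it. The strand that marks the chromosome 1 locus was thus measured on non-treated arrays only, and a level on treated arrays was not detectable.

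The size of the differences moved with the scaling between arrays, as the total signal was lower on treated arrays. Over the miRNAs tested, the median log2 difference stood at -0.13 in the main scaling (by the mean log2 level of 186 miRNAs with detection on all arrays), -0.63 with the mean of all miRNAs, 0.12 with their 75th percentile, -1.05 with the spike-in controls and -1.22 with no scaling. A factor common to an array moves the members and that median alike, so the differences are also given relative to it. In the main scaling miR-181a stood at -0.80 relative to the median, miR-181b at -0.39, miR-181c at -1.11 and miR-181d at -1.60. Quantile normalization, which forces all arrays to 1 distribution, gave -0.87, -0.14, -0.95 and -1.44 relative to its median for miR-181a, miR-181b, miR-181c and miR-181d. miR-181b was the member that moved most under it.

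**Figure D5:**
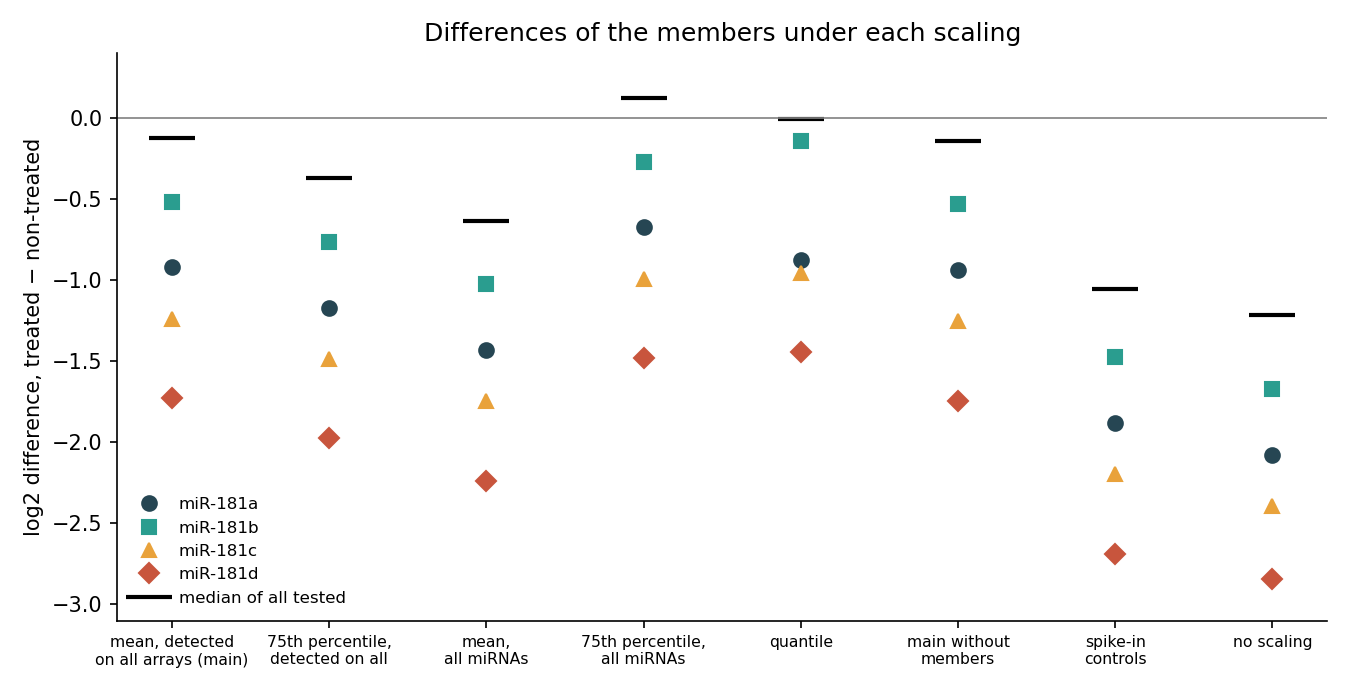
Log2 difference, treated minus non-treated (y axis), of the 4 members and the median of all miRNAs tested (black bars) under 8 ways to scale the arrays (x axis). The bar moves from -0.13 in the main scaling to -1.22 without scaling, and the members move with it because a scaling factor shifts all miRNAs of an array alike; quantile normalization is the exception.

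The miRNAs whose values across the 7 arrays were most like each member, after each was centred on its mean, were sought among 185 others with detection on each array, by the root mean square of their log2 differences. For miR-181a these were miR-574-5p (0.127, log2 difference between groups -0.84) and miR-2132_v15.0 (0.163, -1.19), while miR-181b ranked 6 and miR-181c 16. For miR-181b they were miR-139-5p (0.1002, -0.50) and let-7e (0.109, -0.54), while miR-181a ranked 32 and miR-181c 93. For miR-181c they were let-7i (0.162, -1.23) and miR-125b-5p (0.220, -1.43), while miR-181a ranked 11 and miR-181b 32. A member's nearest miRNA was outside the family for the 3 members that could be ranked. As the 185 others held few family members, this does not show whether the family varies together. miR-181d was not ranked because it was not detected on every array.

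miRNAs encoded near miR-181c and miR-181d on chromosome 8, where Mir23a lies 29556 bases from Mir181c, were lower as well, 3 of 3 past the threshold with a median log2 difference of -0.72. Over all 236 miRNAs tested, 34.7% were called lower. Of the 3 neighbours, miR-23a had the largest difference, -0.995 (SE 0.097, limma adjusted p = 3.05e-05), followed by miR-27a at -0.72 and miR-24 at -0.60. miR-24 is also encoded at another locus, which its signal does not separate. All 3 differences were smaller than that of miR-181c, and whether they differ from it was not tested.

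Lists of miRNAs known from cell types in which miR-181 is studied were set beside the family. Over all 236 miRNAs tested, 34.7% were called lower and 25.8% higher. Of 9 leukocyte miRNAs, 7 were detected on all arrays, and these 7 were lower past the threshold, with log2 differences from -2.52 to -1.76 and a median of -1.95. The other 2, miR-146b and miR-342-5p, were detected on all non-treated and on no treated array. With each treated array set at the higher of its own signal and the lowest detected one, the non-treated level of miR-342-5p was 1.20-fold higher. That of miR-146b, a miRNA induced by inflammatory signalling, was 6.86-fold higher. Neither fold is a firm lower bound. For miR-146b, the limma adjusted p of 1.65e-06 belongs to a miRNA kept through the non-treated group alone. Its measured difference of -3.44 became -0.064 (adjusted p = 0.455) with normexp at an offset of 50, and the deposited table lost its call (adjusted p = 0.0168). Of 6 endothelial and vascular miRNAs, 0 were lower and 1 was higher past the threshold, with a median of 0.037. The higher one was miR-221 at 0.81 (SE 0.083, limma adjusted p = 3.95e-05), whose sign turned with spike-in scaling (-0.15) and without scaling (-0.35), while miR-126-3p, an abundant endothelial miRNA, had a difference of -0.0018. Of 2 smooth muscle and pericyte miRNAs, 2 were lower, miR-143 by 1.05 (log2 difference -1.05, SE 0.10, limma adjusted p = 3.14e-05) and miR-145 by 0.82 (-0.82). The difference of miR-181a lay between those of these 2 miRNAs.

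The summed scaled signal of whole marker lists also moved with the labels, except for the endothelial list. The calls below stand beside 34.7% of all 236 miRNAs tested that were called lower and 25.8% called higher. Leukocyte markers (6 of 6 lower past the threshold, all detected on all arrays) summed to 1398 to 1779 on non-treated and 339 to 352 on treated arrays. Smooth muscle markers (2 of 2 lower) summed to 335 to 410 and 163 to 195, and endothelial markers (0 of 2 past the threshold) to 1769 to 1955 and 1780 to 1899. Tubule markers, of which 8 of the 9 tested were higher and miR-204 was lower, summed to 3859 to 4692 on non-treated and 11150 to 11586 on treated arrays. Red blood cell markers (2 of 2 on the array higher) summed to 1079 to 2329 and 4615 to 5118. The part of these cell types in the differences of the miR-181 members was not tested.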

How the data were processed

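Scanner files from Feature Extraction 10.7.3.1 (Agilent) were deposited by the authors, and their processed signal is an intensity on a linear scale, corrected for background. Each array holds 13920 spots for 1937 probes, none saturated. A deposited table of processed intensity values holds the first spot of each probe for 6 arrays (relative tolerance 1e-05) and, for treated replicate 4, its error estimate. Precision is limited by the number of arrays, as arrays have no read depth. The labels name the RecoverAll kit for these kidneys. The study's methods name that kit for human paraffin-embedded samples and the miRNeasy Mini kit for tissue. Which kit was used for these arrays could not be settled here.

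Spots were averaged per probe without outlier flags and summed per miRNA. Each array was scaled to the mean log2 level of 186 miRNAs with detection throughout, floored at 2.08 and log2 transformed. No member's summed signal lay at the floor. Single probes had a floor of 0.055 in log2. The labels were compared with limma 3.58.1 (R 4.3.3) over the 236 miRNAs that all arrays of 1 group or both detected, with Benjamini-Hochberg adjusted p below 0.01, and the same over 365 probes. No replicates were identical (SD of log2 differences at least 0.168). Named are the members, their other strands, the 2 miRNAs most like each member, and the largest rise and fall past the threshold in each list; miR-21, the other neighbours, miR-145, miR-342-5p, miR-126-3p, miR-204 and miR-215 were named after their values were seen. Alternatives covered scaling, signal, probes, filter, floor, test, threshold, the replicate block and each array left out. Slide row and normexp with an offset of 1 were added after seeing the data. Of these steps, only the centring of arrays and the limma fit were run on simulated data, not the spot averaging, filter, floor, ratios or bounds. The members and lists were chosen with earlier results of these data known.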

Additional observations from a re-analysis of the deposited data

How the results depend on the processing

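Each member lost its call under at least 1 setting, and miR-181b under the most. The log2 difference of miR-181b was no longer past the threshold with the 75th percentile of all miRNAs (-0.27, adjusted p = 0.128), quantile normalization (-0.14), Agilent's summed signal (-0.47, adjusted p = 0.01001), normexp with an offset of 1 (-0.30, where miR-181c was at -0.73 and miR-181d at -0.47), the deposited table (-0.57) or that table without treated replicate 4 (-0.59). At its main value of -0.52 the call was lost with all 696 miRNAs tested (adjusted p = 0.0340), the methods' t-test after Benjamini-Hochberg adjustment (0.0145) and Bonferroni adjustment (0.546). miR-181a lost its call with all miRNAs tested (-0.92, adjusted p = 0.0137) and with Bonferroni adjustment (0.0628). miR-181d lost it in the deposited table (-1.03, adjusted p = 0.120), and Agilent's summed signal gave -2.51. normexp with an offset of 50 turned the sign of miR-181b (0.093) and miR-181d (0.18), left miR-181c at -0.0056 and miR-181a at -0.34, and turned miR-181a-1* (0.19; 0.10 with an offset of 1), miR-574-5p (0.22) and miR-139-5p (0.14), with miR-146b at -0.064. That offset adds 50 to each probe, and the highest mean signal of a member's probe on treated arrays was 39.4. miR-221 turned with spike-in scaling (-0.15) and no scaling (-0.35).

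Members called lower numbered 1 with that normexp, and 2 each with the deposited table, all miRNAs tested and Bonferroni adjustment. The main setting gave 4, a count that includes miR-181d, whose call is not counted as support. The number was 3 where only miRNAs detected on all arrays were tested, and wherever miR-181b alone lost its call. Of all miRNAs, 82 lower calls became 170 with spike-in scaling, 167 without scaling, 53 with normexp, 27 with the table, 48 with the table without treated replicate 4 and 45 with Bonferroni adjustment. The 61 higher calls became 37 with the mean of all miRNAs, 18 with spike-in scaling, 8 without scaling, 34 with the table and 39 with Bonferroni adjustment. The methods' t-test at the methods' threshold gave 83 lower and 56 higher calls unadjusted, and 71 lower and 55 higher after Benjamini-Hochberg adjustment. Causes other than the construction of these settings were not tested.

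Leaving out arrays one at a time, the log2 difference ran from -0.99 to -0.81 for miR-181a, -0.60 to -0.46 for miR-181b, -1.33 to -1.06 for miR-181c and -1.86 to -1.64 for miR-181d. The members called ran from 3 to 4, the lower calls from 67 to 102 and the higher calls from 54 to 61. Deviations from group means correlated at -0.00057, -0.022 and 0.19 between arrays of the same replicate number (1, 3 and 4). Between arrays of different numbers the correlations ran from -0.12 to 0.11. So few arrays cannot show whether the numbers pair them. With the replicate block, miR-181b was at -0.50 (adjusted p = 0.0286), and 71 lower and 56 higher calls were made.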

Other observations

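The columns of the deposited table, which hold linear values with no log, centring or scaling, had medians of 0.445, 0.532, 0.470 and 0.346 for non-treated replicates 1 to 4 and of 0.322, 0.276 and 1.001 for treated replicates 1, 3 and 4. The last is the column of error estimates.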
